A study of Mus musculus with 9 samples.

Results

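Transcripts of cartilage matrix genes were measured in sorted smooth muscle of the mouse lung. The 10 genes were Col2a1, Col11a2, Col9a1, Col9a2, Col9a3, Col10a1, Acan, Comp, Matn3 and Cnmd. They were taken by gene symbol from a table of 21049 genes in 9 libraries, and each had a row. Groups of 3 libraries each were compared. Total_SMC were smooth muscle cells of the lung, venous ones among them, from tg-Acta2-GFP mice, in which an Acta2 transgene drives the green fluorescent protein. PASMC were arterial smooth muscle cells of the lung from mice called ASMC-effector, with the genotype Cspg4/Acta2-CreER/R26-GFP. BSMC were smooth muscle cells of the bronchi, from mice called NVSMC-effector, with the genotype Chrm2/Acta2-CreER/R26-GFP. All 9 libraries were labelled as tamoxifen treated, at 0.75 mg per 10 g for 3 days. Cells were collected by fluorescence-activated sorting, so each population was set by the genes that drove the fluorescent protein. The ages of the mice, and whether replicates came from separate animals, are not given in the sources used here, so p-values measure only the spread between these samples, which may be technical.

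Cartilage is a tissue of scattered chondrocytes in a matrix of collagen fibrils and aggrecan. Collagen II forms the body of the fibril, collagen XI sits inside it and collagen IX decorates its surface, while collagen X is made by hypertrophic chondrocytes of the growth plate. The transcription factor SOX9, with SOX5 and SOX6, turns on Col2a1, Acan and several other genes of this matrix. In the airways, cartilage surrounds the trachea and the large bronchi next to the smooth muscle. COMP is made also by tendon and by vascular smooth muscle cells.

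Values are the normalized read counts that the authors deposited, rounded to whole numbers. The reads behind each library were recovered from the spacing of these whole numbers and came to 6.39 to 10.02 M per library. A gene entered the test when its value reached 10 in at least 3 libraries, which 15647 genes did. Of the 10 cartilage genes, 6 did so, and Acan, Matn3, Col9a1 and Col9a2 did not. Col2a1 and Col10a1 passed only through their PASMC libraries. Fold changes are on the scale of log2(value + 1), which understates the change of low genes, and a gene was called at an adjusted p under 0.05 in limma's test with Benjamini-Hochberg adjustment over all genes tested.

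The smooth muscle myosin gene Myh11 had 10351, 10055 and 12375 counts in total_SMC, 12498, 11203 and 12172 in PASMC, and 9171, 11404 and 11032 in BSMC, and was not called in any comparison. Other smooth muscle genes were lower in total_SMC. Over all genes tested, 16.2% were called between total_SMC and PASMC, 41.9% between total_SMC and BSMC and 22.1% between PASMC and BSMC. Of 10 smooth muscle markers, 0 were higher and 4 lower in total_SMC than in PASMC, 0 higher and 6 lower in total_SMC than in BSMC, and 2 higher and 0 lower in PASMC than in BSMC. These counts fell to 2 without PASMC replicate 1 or 3 or total_SMC replicate 1 against PASMC, and to 2 or 3 against BSMC without any 1 library other than BSMC replicate 2 or total_SMC replicate 3, while the 2 between PASMC and BSMC became 7 (2 higher and 5 lower) without BSMC replicate 2. Their summed level was 3382 ± 256 CPM (normalized count as a share of the library total) in total_SMC, 4485 ± 303 in PASMC and 4619 ± 364 in BSMC (SD, n = 3 each). Acta2, named in the mouse lines of all 3 groups, had 3065, 2892 and 3094 counts in total_SMC. Its counts were 3390, 3058 and 3421 in PASMC, and 4038, 3280 and 4526 in BSMC. The log2 difference of total_SMC from BSMC was -0.38 ± 0.12 for Acta2 (SE, adjusted p = 0.0281), a call kept in 9 of 17 alternatives. Acta2 was not called between total_SMC and PASMC (adjusted p = 0.595) or between PASMC and BSMC (0.145). Lmod1, a leiomodin gene, was lower in total_SMC than PASMC by -1.06 (adjusted p = 0.000193) and than BSMC by -1.27 (adjusted p = 2.13e-05). The part of this difference in the cartilage gene values was not tested.

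Markers of airway and of vascular muscle did not separate PASMC from BSMC as the labels name them. Chrm2, a muscarinic receptor gene of airway muscle named in the genotype of the BSMC mice, had 398, 385 and 199 counts in PASMC, against 155, 223 and 115 in BSMC. It was higher in PASMC by 0.98 ± 0.31 on the log2 scale (SE, adjusted p = 0.0433), a call that held in 7 of 17 alternatives and was lost on leaving out any 1 library other than BSMC replicate 2 or PASMC replicate 3 (adjusted p of up to 0.16). Hhip, a Hedgehog inhibitor found in airway muscle, had 7579, 7798 and 7414 counts in PASMC and 3078, 3491 and 2913 in BSMC. Of 8 airway smooth muscle markers tested, 5 were higher and 0 lower in PASMC than in BSMC, where 13.2% of all genes tested were higher and 8.88% lower. Of 10 markers of vascular smooth muscle and pericytes, 3 were higher and 2 lower in PASMC than in BSMC, and the pericyte gene Abcc9 was among the higher (1.84, adjusted p = 0.000264). The 2 lower were Higd1b (-3.20, adjusted p = 0.00106) and Gja4 (-1.15, adjusted p = 0.000411). Cspg4, a pericyte and vascular muscle gene named in the genotype of the PASMC mice, had 1958, 1658 and 2393 counts in PASMC, against 1296, 1469 and 1778 in BSMC, on average higher in the group whose genotype names it, and was not called (log2 fold change 0.40 ± 0.26, adjusted p = 0.268). Every direction given below between PASMC and BSMC therefore means the libraries labelled PASMC and the libraries labelled BSMC.

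**Figure D1:**
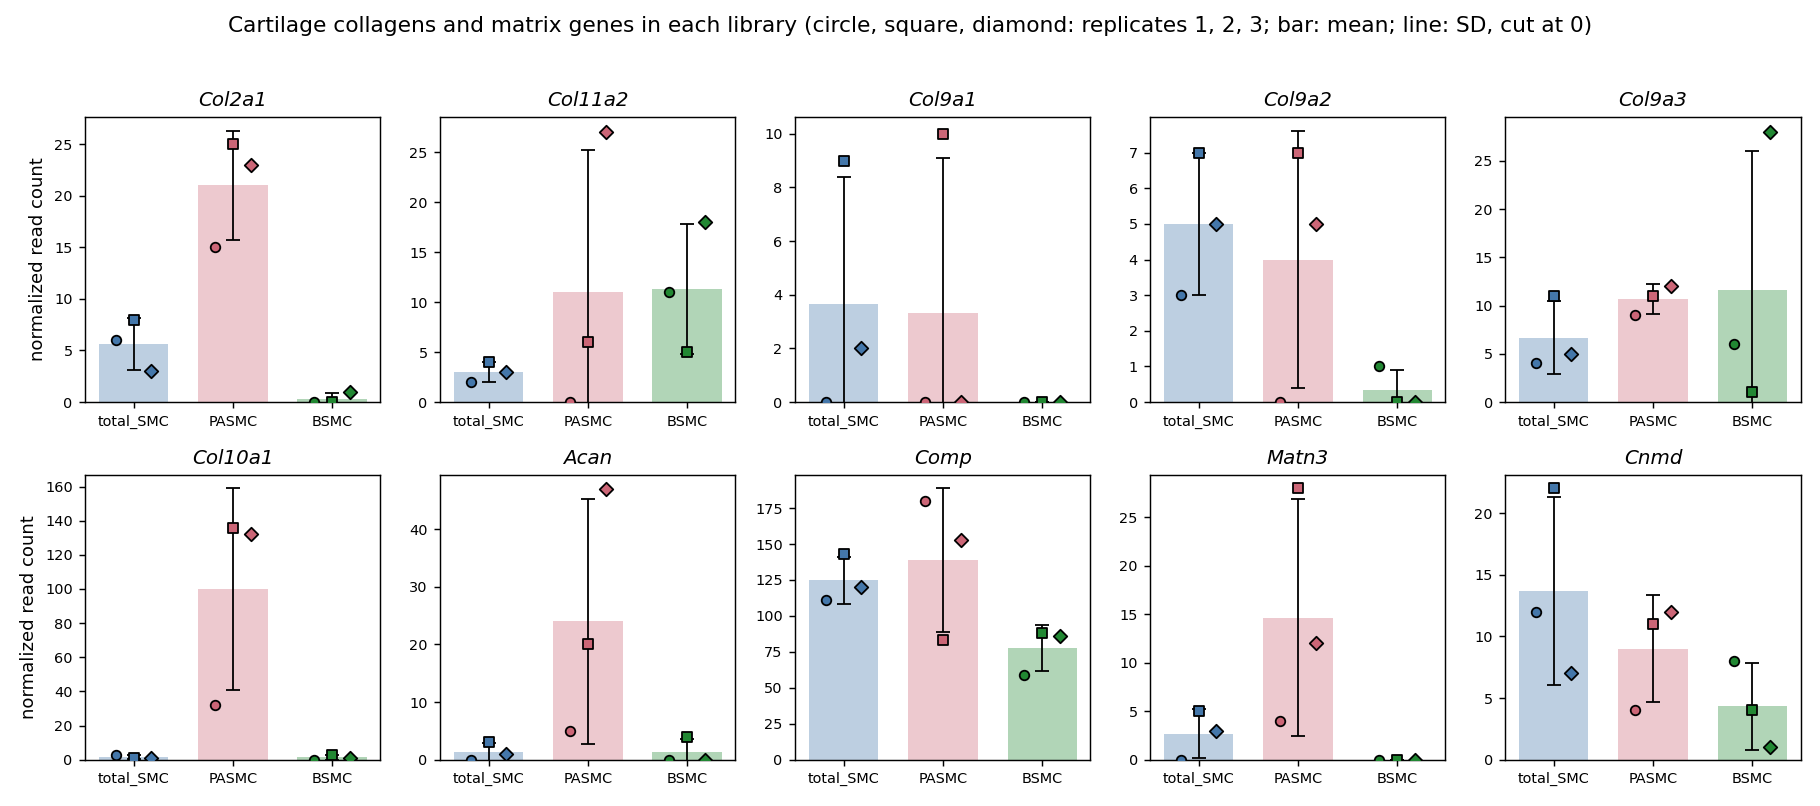
Normalized read count (vertical axis, from 0, a scale for each gene) of the 10 cartilage genes in total_SMC, PASMC and BSMC, with symbols for the 3 replicates, a bar for the mean and a line for the SD, cut at 0. Col2a1 and Col10a1 stand above both other groups in every PASMC library, while Comp is at 59 or more in all 9 libraries.

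All 10 genes were detected, most of them at very low levels. Col10a1 and Col2a1 were higher in PASMC than in BSMC, Col10a1 also than in total_SMC, and Col2a1 was higher in total_SMC than in BSMC. Comp was the most abundant of the 10 in total_SMC and BSMC and was not called in any comparison. Col10a1 and Col2a1 both entered the test only through their PASMC libraries, the group where they were high. Counts of called genes that include them therefore depend on the filter and are given as a description. Between PASMC and BSMC 2 of the 6 genes tested were called higher and 0 lower, where 13.2% of all genes tested were called higher and 8.88% lower (22.1% in either direction). Between total_SMC and PASMC 0 were called higher and 1 lower, where 9.39% of all genes were called higher and 6.83% lower (16.2% in either direction). Between total_SMC and BSMC 1 was called higher and 0 lower, where 23.7% of all genes were called higher and 18.2% lower (41.9% in either direction).

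Col2a1 (ENSMUSG00000022483, mm39 chromosome 15, 97873483 to 97902576, minus strand) encodes the chain of collagen II. It had 6, 8 and 3 counts in total_SMC, 15, 25 and 23 in PASMC, and 0, 0 and 1 in BSMC. The 3 groups did not overlap, with PASMC highest, BSMC lowest and total_SMC between them. The mean was 5.67 ± 2.52 counts in total_SMC, 21 ± 5.29 in PASMC and 0.333 ± 0.577 in BSMC (SD, n = 3 each). PASMC was above BSMC by 4.10 ± 0.63 on the log2 scale (SE, adjusted p = 0.000894). The call held in the 16 alternatives that kept the gene, between 2.27 and 4.43, and a filter of 50 left it out. Apart from the fit with no filter, these alternatives used the filter that Col2a1 passed only through its PASMC libraries. Since BSMC held a single read, the fold of PASMC over BSMC depends on the added count of 1. In reads, 69 in PASMC against 1 in BSMC gave a ratio of 59.3, with a 95% interval from 10.3 to 2377 that covers counting error only. Col2a1 was also higher in total_SMC than in BSMC, by 2.33 ± 0.63 (adjusted p = 0.0126), from 19 reads against 1, a ratio of 16.9 with an interval from 2.68 to 701.5. That call was lost without total_SMC replicate 2 (adjusted p = 0.0558), with only the 2 groups in the fit (0.0669) and after quantile scaling (0.107). Between total_SMC and PASMC the difference of -1.77 ± 0.63 was not called (adjusted p = 0.0836, 95% interval -3.15 to -0.39). It was called in 5 of 16 alternatives, among them the fit without BSMC replicate 3 (adjusted p = 0.0472).

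Col11a2 (ENSMUSG00000024330, chromosome 17, 34258411 to 34285659, plus strand), which encodes a chain of collagen XI, had 2, 4 and 3 counts in total_SMC, 0, 6 and 27 in PASMC, and 11, 5 and 18 in BSMC. The PASMC libraries ran from none to the highest value of all 9, and spanned both other groups. All total_SMC libraries lay under all BSMC libraries, without a call (log2 fold change -1.50 ± 1.02, adjusted p = 0.251). The difference between PASMC and BSMC was -0.93 with a 95% interval from -3.18 to 1.31, and it was 0.34 without PASMC replicate 1, so no direction was resolved.

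The 3 genes of collagen IX, the collagen of the fibril surface, were all low. Col9a1 (ENSMUSG00000026147, chromosome 1, 24216691 to 24291765, plus strand) had 0, 9 and 2 counts in total_SMC, 0, 10 and 0 in PASMC, and 0, 0 and 0 in BSMC. All its PASMC counts came from replicate 2. Against the 3 reads over the group that BSMC's count of 0 allows, the mean was at least 3.55-fold higher in total_SMC and at least 3.44-fold higher in PASMC. These bounds take the 12 reads of each higher group as exact, and so leave out their counting error. Both bounds rest on replicate 2 of each group, without which 2 reads were left in total_SMC and 0 in PASMC. Without total_SMC replicate 1 the first bound was 5.43-fold. Col9a2 (ENSMUSG00000028626, chromosome 4, 120896582 to 120912519, plus strand) had 3, 7 and 5 counts in total_SMC, 0, 7 and 5 in PASMC, and 1, 0 and 0 in BSMC. Every total_SMC library was above every BSMC library, while PASMC replicate 1 was at 0 like 2 of the BSMC libraries. In reads, the ratio to BSMC was 14.2 in total_SMC (95% counting interval 2.21 to 596) and 11.2 in PASMC (1.68 to 475), and the PASMC ratio was 6.68 without PASMC replicate 2.

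Col9a3 (ENSMUSG00000027570, chromosome 2, 180239583 to 180263982, plus strand) had 4, 11 and 5 counts in total_SMC, 9, 11 and 12 in PASMC, and 6, 1 and 28 in BSMC. The PASMC libraries lay close together and inside the range of BSMC, whose replicates 2 and 3 were the lowest and the highest of all 9. The log2 difference was 0.65 ± 0.85 between PASMC and BSMC (adjusted p = 0.593, 95% interval -1.21 to 2.50), and its sign turned without BSMC replicate 2 (-0.30). In BSMC, counts of Col9a1 and Col9a2 were at or near 0 in every library, and those of Col9a3 reached 28 in 1 library.

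Col10a1 (ENSMUSG00000039462, chromosome 10, 34265977 to 34273081, plus strand), the gene of the hypertrophic chondrocyte collagen, had 3, 1 and 1 counts in total_SMC, 32, 136 and 132 in PASMC, and 0, 3 and 1 in BSMC. Every PASMC library was far above the other 6, and replicate 1 held far fewer counts than the other PASMC libraries. The mean was 1.67 ± 1.16 in total_SMC, 100 ± 58.9 in PASMC and 1.33 ± 1.53 in BSMC (SD, n = 3 each). In recovered reads these were 5 in total_SMC, 329 in PASMC and 4 in BSMC. On the log2 scale PASMC was higher than BSMC by 5.40 ± 0.75 (SE, adjusted p = 0.000444), and total_SMC was lower than PASMC by -5.07 ± 0.75 (adjusted p = 0.000759). Both calls held in the 16 alternatives that kept the gene, and a filter of 50 left it out. The range was 3.85 to 6.08 for PASMC over BSMC and -5.84 to -3.76 for total_SMC over PASMC. Apart from the fit with no filter, these alternatives used the filter that Col10a1 passed only through its PASMC libraries. The sizes of both differences too depend on the added count, because the other groups held almost no reads. Total_SMC and BSMC could not be told apart (0.33 ± 0.75, adjusted p = 0.739). The gene Nt5dc1 overlaps Col10a1 on the opposite strand, and whether counting used the strand is not given in the sources used here. Nt5dc1 had 312, 324 and 324 counts in total_SMC, 379, 301 and 234 in PASMC, and 413, 447 and 226 in BSMC. Neither its difference between PASMC and BSMC (-0.21, adjusted p = 0.562) nor that between total_SMC and PASMC (0.10, adjusted p = 0.874) was called.

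Acan (ENSMUSG00000030607, chromosome 7, 78703231 to 78764847, plus strand) encodes aggrecan, the large chondroitin sulfate proteoglycan that holds water in cartilage. It had 0, 3 and 1 counts in total_SMC, 5, 20 and 47 in PASMC, and 0, 4 and 0 in BSMC. All PASMC libraries were above all others, with replicate 1 only 1 count over the highest BSMC library. The gene was under the limit on low values. With no such limit it was higher in PASMC than in BSMC by 3.41 on the log2 scale (adjusted p = 0.0233) and lower in total_SMC than in PASMC by -3.19 (adjusted p = 0.0363).

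Matn3 (ENSMUSG00000020583, chromosome 12, 8997929 to 9022028, plus strand) encodes matrilin 3, an adaptor that links collagen fibrils to other matrix proteins. It had 0, 5 and 3 counts in total_SMC, 4, 28 and 12 in PASMC, and 0, 0 and 0 in BSMC. PASMC did not overlap BSMC, while total_SMC overlapped both. Against the 3 reads that a count of 0 allows over the group, PASMC was at least 13.8-fold higher than BSMC, and total_SMC at least 2.67-fold. These bounds take the 48 reads of PASMC and the 9 reads of total_SMC as exact, and so leave out their counting error. Without PASMC replicate 2 the first bound was 7.13-fold. Without total_SMC replicate 1 the second was 4.08-fold, and without total_SMC replicate 2 only 3 reads were left in total_SMC, too few for a bound. With no limit on low values, it was called higher in PASMC than in BSMC (3.63, adjusted p = 0.00962) and not called between total_SMC and PASMC (-2.10, adjusted p = 0.125). In that fit over 21049 genes, 4 of the 10 cartilage genes were called higher and 0 lower in PASMC than in BSMC, where 10% of all genes were called higher and 6.68% lower (16.7% in either direction). Between total_SMC and PASMC 0 were called higher and 2 lower, where 7.79% of all genes were higher and 4.97% lower (12.8% in either direction). Between total_SMC and BSMC 1 was called higher and 0 lower, where 19.2% of all genes were higher and 13.6% lower (32.8% in either direction).

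The upstream sequences of Col10a1, Acan and Matn3 are shown because these genes had little or no signal in BSMC and were above it in every PASMC library. They are the 250 bases before the start site in RefSeq, on the build GRCm38.p6, each read 5′ to 3′ on the plus strand, with the letters TATAAA in capitals where present. The regions are chr10:34389731-34389980 for Col10a1, chr7:79052976-79053225 for Acan and chr12:8947679-8947928 for Matn3.
Col10a1: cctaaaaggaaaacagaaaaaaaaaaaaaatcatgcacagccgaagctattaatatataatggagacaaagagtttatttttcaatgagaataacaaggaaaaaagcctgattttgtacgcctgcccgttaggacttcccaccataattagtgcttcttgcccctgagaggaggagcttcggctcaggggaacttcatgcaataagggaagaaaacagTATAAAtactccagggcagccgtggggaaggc
Acan: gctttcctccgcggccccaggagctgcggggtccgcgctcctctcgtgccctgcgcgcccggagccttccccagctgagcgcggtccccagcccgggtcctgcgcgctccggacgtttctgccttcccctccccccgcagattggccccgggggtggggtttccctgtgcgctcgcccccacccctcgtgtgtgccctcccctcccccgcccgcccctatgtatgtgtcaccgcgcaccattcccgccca
Matn3: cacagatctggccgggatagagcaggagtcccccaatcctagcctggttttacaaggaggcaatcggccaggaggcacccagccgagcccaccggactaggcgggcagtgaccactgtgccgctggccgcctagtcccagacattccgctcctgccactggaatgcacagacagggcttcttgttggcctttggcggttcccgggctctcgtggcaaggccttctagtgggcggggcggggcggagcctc
The Col10a1 sequence held TATAAA at -32 from the start and was 41.6% G or C. The Acan and Matn3 sequences held no TATAAA and were 74.4% and 65.2% G or C, where the median of all promoters was 52.4%. Searched on both strands, TATAAA stood in 12.4% of 32851 promoters, AACAAT, a core to which SOX factors bind, in 9.42%, and ACCACA, a core to which RUNX factors bind, in 14%. Promoters of 7 of the 10 genes were matched, and besides Col10a1 only that of Col11a2 held one of these motifs, TATAAA at -143. A match is a description of letters and not of a bound site.

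Comp (ENSMUSG00000031849, chromosome 8, 70826208 to 70834716, plus strand) encodes a pentameric matrix protein that binds collagen fibrils. It had 111, 143 and 120 counts in total_SMC, 180, 83 and 153 in PASMC, and 59, 88 and 86 in BSMC. All total_SMC libraries were above all BSMC libraries, while PASMC held the highest value of the 9 and, in replicate 2, a value inside the range of BSMC. The mean was 124.7 ± 16.5 in total_SMC, 138.7 ± 50.1 in PASMC and 77.7 ± 16.2 in BSMC (SD, n = 3 each). The differences from BSMC were 0.78 ± 0.31 in PASMC (adjusted p = 0.0876) and 0.69 ± 0.31 in total_SMC (adjusted p = 0.0919), and neither was called. The first was called without PASMC replicate 2 (1.11, adjusted p = 0.0286). Between total_SMC and PASMC the difference was -0.09 ± 0.31, with a 95% interval from -0.77 to 0.59.

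Cnmd (ENSMUSG00000022025, chromosome 14, 79875130 to 79899610, minus strand) encodes chondromodulin, a cartilage glycoprotein that inhibits the growth of blood vessels. It had 12, 22 and 7 counts in total_SMC, 4, 11 and 12 in PASMC, and 8, 4 and 1 in BSMC. The groups overlapped in every pair, and total_SMC held the highest library. The log2 difference of total_SMC from BSMC, 1.58 ± 0.72 (adjusted p = 0.0947), was called only without BSMC replicate 1 (2.08, adjusted p = 0.0485). Between PASMC and BSMC it was 1.04 ± 0.72 (adjusted p = 0.296).

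**Figure D2:**
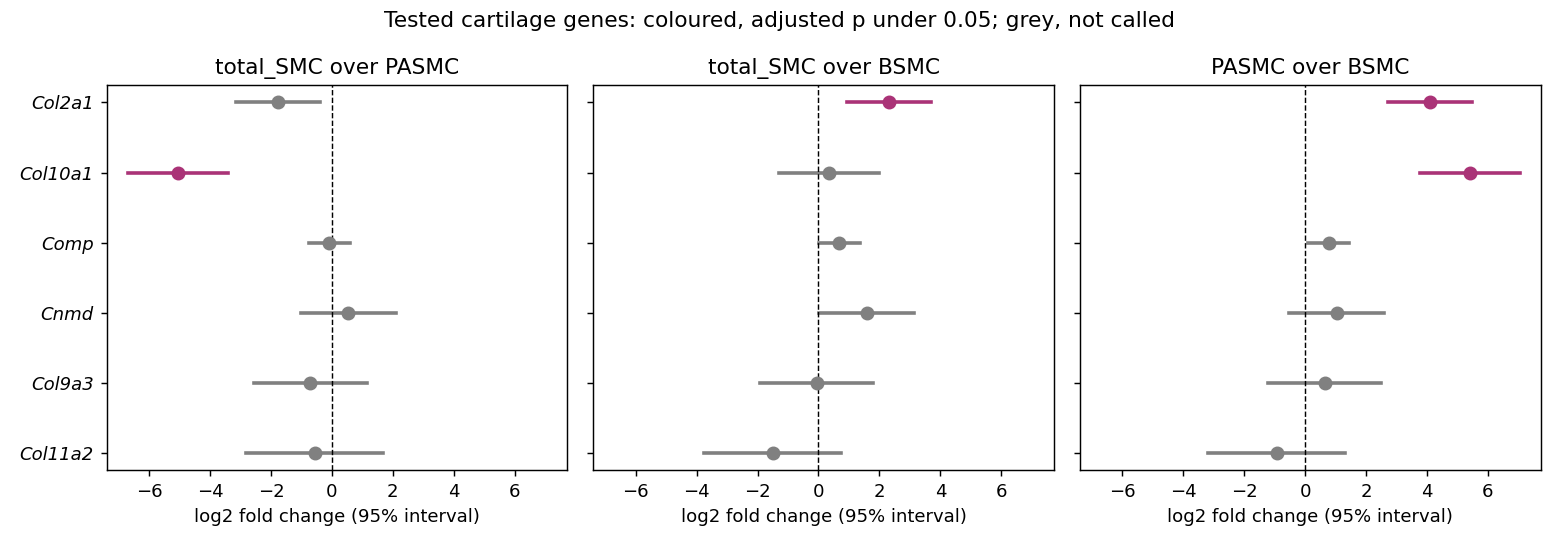
Log2 fold change (horizontal axis, with its 95% interval) of the 6 tested cartilage genes in the 3 comparisons, coloured where the adjusted p was under 0.05. Col10a1 and Col2a1 lie above 0 between PASMC and BSMC at 5.40 and 4.10, and the interval of Comp between total_SMC and PASMC runs from -0.77 to 0.59.

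Read without any test, 4 of the 10 genes had every PASMC library above every BSMC library, where 17.6% of the 15647 genes tested and 14.3% of all 21049 genes did. The 4 were Col2a1, Col10a1, Acan and Matn3, and none of the 10 had every PASMC library below every BSMC library. Acan and Matn3, 2 of the 4, were under the limit on low values. Between total_SMC and PASMC, Col2a1, Col10a1 and Acan, 3 of 10, had every total_SMC library below every PASMC library, where 18% of all genes tested and 14.6% of all genes did. Between total_SMC and BSMC, 3 genes (Col2a1, Col9a2 and Comp) lay wholly above, where 26.6% of all genes tested and 22.8% of all genes did, and Col11a2 lay wholly below, where 23.9% of all genes tested and 19.6% of all genes did.

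The PASMC libraries were not alike. In PASMC, replicate 1 had the lowest value for 8 of the 10 genes and shared it for Col9a1, while Comp was highest in that replicate. Summed without Comp, the other 9 genes had 30, 70 and 30 counts in total_SMC, 69, 254 and 270 in PASMC, and 26, 17 and 49 in BSMC. PASMC replicate 1 thus lay 1 count under the highest total_SMC library, and replicates 2 and 3 lay well above all others. Col10a1 alone made up 46.4%, 53.5% and 48.9% of that sum in PASMC. Comp made up 78.7%, 67.1% and 80.0% of the counts of all 10 genes in total_SMC, 72.3%, 24.6% and 36.2% in PASMC, and 69.4%, 83.8% and 63.7% in BSMC. Its share was under 40% in 2 libraries, both PASMC. In total_SMC, replicate 2 was highest for 9 of the 10 genes. The number of the 10 genes above 0 was 7, 10 and 10 in total_SMC, 7, 10 and 9 in PASMC, and 5, 6 and 6 in BSMC, whose libraries had 6.39 to 9.33 M reads.

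**Figure D3:**
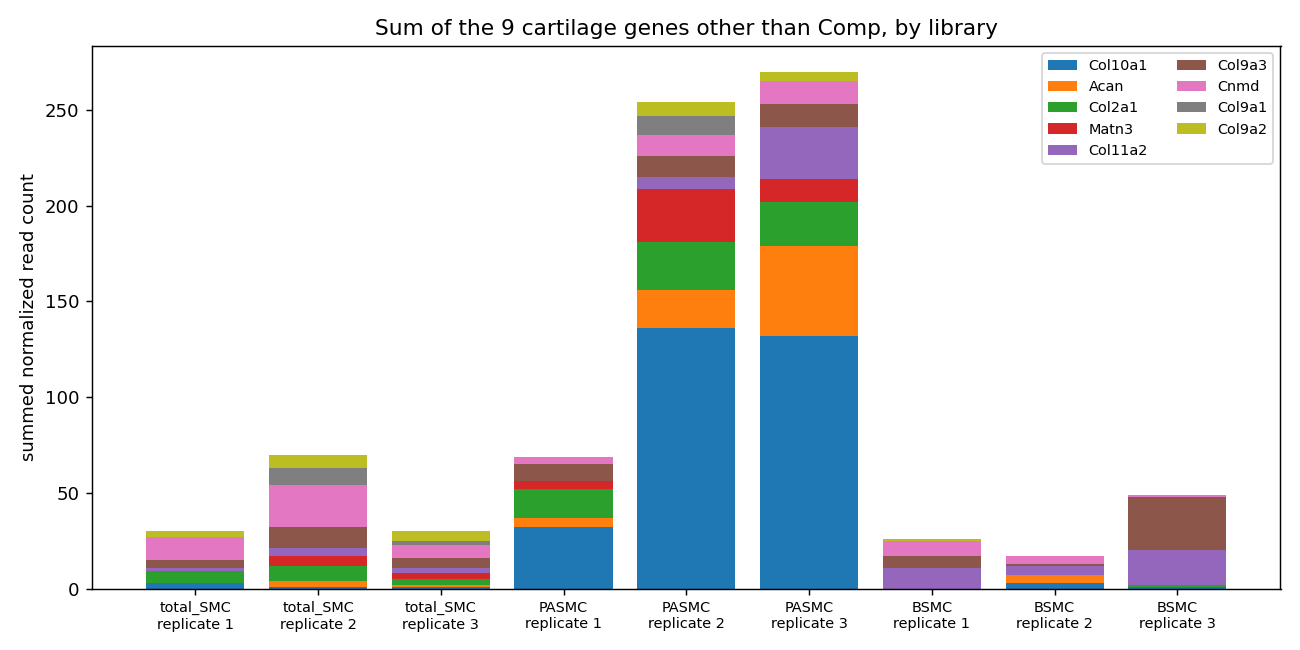
Summed normalized read count (vertical axis) of the 9 cartilage genes without Comp, stacked by gene, in each of the 9 libraries. PASMC replicates 2 and 3 reach 254 and 270 counts, with Col10a1 at 53.5% and 48.9% of it, and PASMC replicate 1 reaches 69, close to total_SMC replicate 2 at 70.

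Levels can be set side by side between genes only per length. Divided by the exon length in GENCODE vM21, matched by gene identifier, Comp averaged 42.0 counts per kb in total_SMC, 46.7 in PASMC and 26.2 in BSMC, and its libraries lay apart from the next gene in total_SMC and BSMC. In PASMC, Col10a1 came next at 31.95 counts per kb, with a range of 10.2 to 43.5 that overlapped the Comp range of 28 to 60.7. Below them in PASMC stood Cnmd at 4.88, Matn3 at 4.87, Acan at 3.21, Col9a3 at 2.77 and Col2a1 at 2.27 counts per kb, and each of these overlapped its neighbour in the order. In total_SMC, Cnmd followed Comp at 7.42 counts per kb and lay apart from Col9a3 at 1.73, below which all neighbours overlapped. In BSMC, Col9a3 at 3.03, Cnmd at 2.35 and Col11a2 at 1.65 counts per kb followed Comp, again with overlap between neighbours. Against the median mean count of 279.9 over all genes tested, Comp stood at the percentile 34.4, Col10a1 at 20.4 and Col9a3, Col2a1, Cnmd and Col11a2 at 4.4 or below.

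Transcription factors of chondrocytes ranged from abundant transcripts to none detected in a group. Of 16 such factors, Runx3 was at 0 in all PASMC libraries and Nkx3-2 at 0 in all BSMC libraries. Of 14 such factors tested, 2 were higher and 2 lower in PASMC than in BSMC, 1 higher and 5 lower in total_SMC than in PASMC, and 3 higher and 5 lower in total_SMC than in BSMC. The shares of all genes tested that were called were 22.1%, 16.2% and 41.9%, in the same order. The median log2 fold changes of the list were 0.02, -0.17 and -0.12 in these 3 comparisons, beside 0.047, 0.026 and 0.046 over all genes tested. Without BSMC replicate 2, the 4 called between PASMC and BSMC became 8. Sox9, the main factor of the chondrocyte lineage, had 591, 513 and 486 counts in total_SMC, 251, 399 and 590 in PASMC, and 165, 181 and 124 in BSMC. BSMC lay below both other groups in every library. Sox9 was higher in PASMC than in BSMC by 1.33 ± 0.28 (adjusted p = 0.00592) and higher in total_SMC than in BSMC by 1.77 ± 0.28 (adjusted p = 0.000482), calls that held in 17 of 17 alternatives. It was not called between total_SMC and PASMC (0.44, adjusted p = 0.355). The part of Sox9 in the cartilage gene values was not tested.

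The partners of SOX9 had another pattern. Sox5 had 158, 183 and 182 counts in total_SMC, 187, 175 and 225 in PASMC, and 208, 119 and 150 in BSMC, and was not called in any comparison. Sox6 had 200, 166 and 210 counts in total_SMC, 423, 284 and 325 in PASMC, and 410, 320 and 353 in BSMC. It was lower in total_SMC than in both others, by -0.83 against PASMC (adjusted p = 0.0136) and by -0.91 against BSMC (adjusted p = 0.00385). The call against PASMC was lost without PASMC replicate 1 (adjusted p = 0.0708) and without total_SMC replicate 2 (adjusted p = 0.0662). Sox8, a close relative of Sox9, had 97, 120 and 91 counts in total_SMC, 78, 160 and 223 in PASMC, and 50, 53 and 43 in BSMC, and was higher in PASMC than in BSMC by 1.52 (adjusted p = 0.0106). The forkhead genes Foxc1 and Foxc2, which act in skeletal and vascular development, were lower in total_SMC than in PASMC by -1.09 and -1.01 (adjusted p = 0.000409 and 0.00278). Both were also lower in total_SMC than in BSMC, by -1.12 and -1.32 (adjusted p = 0.000133 and 0.000216). Neither was called between PASMC and BSMC (adjusted p = 0.87 and 0.223). Runx2, which drives chondrocyte hypertrophy and Col10a1 in growth plates, had 15, 14 and 7 counts in total_SMC, 3, 1 and 5 in PASMC, and 40, 13 and 45 in BSMC. It was lower in PASMC than in BSMC by -3.04 (adjusted p = 0.00648). Runx2 was named after its values were seen, and its part in the Col10a1 values was not tested.

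**Figure D4:**
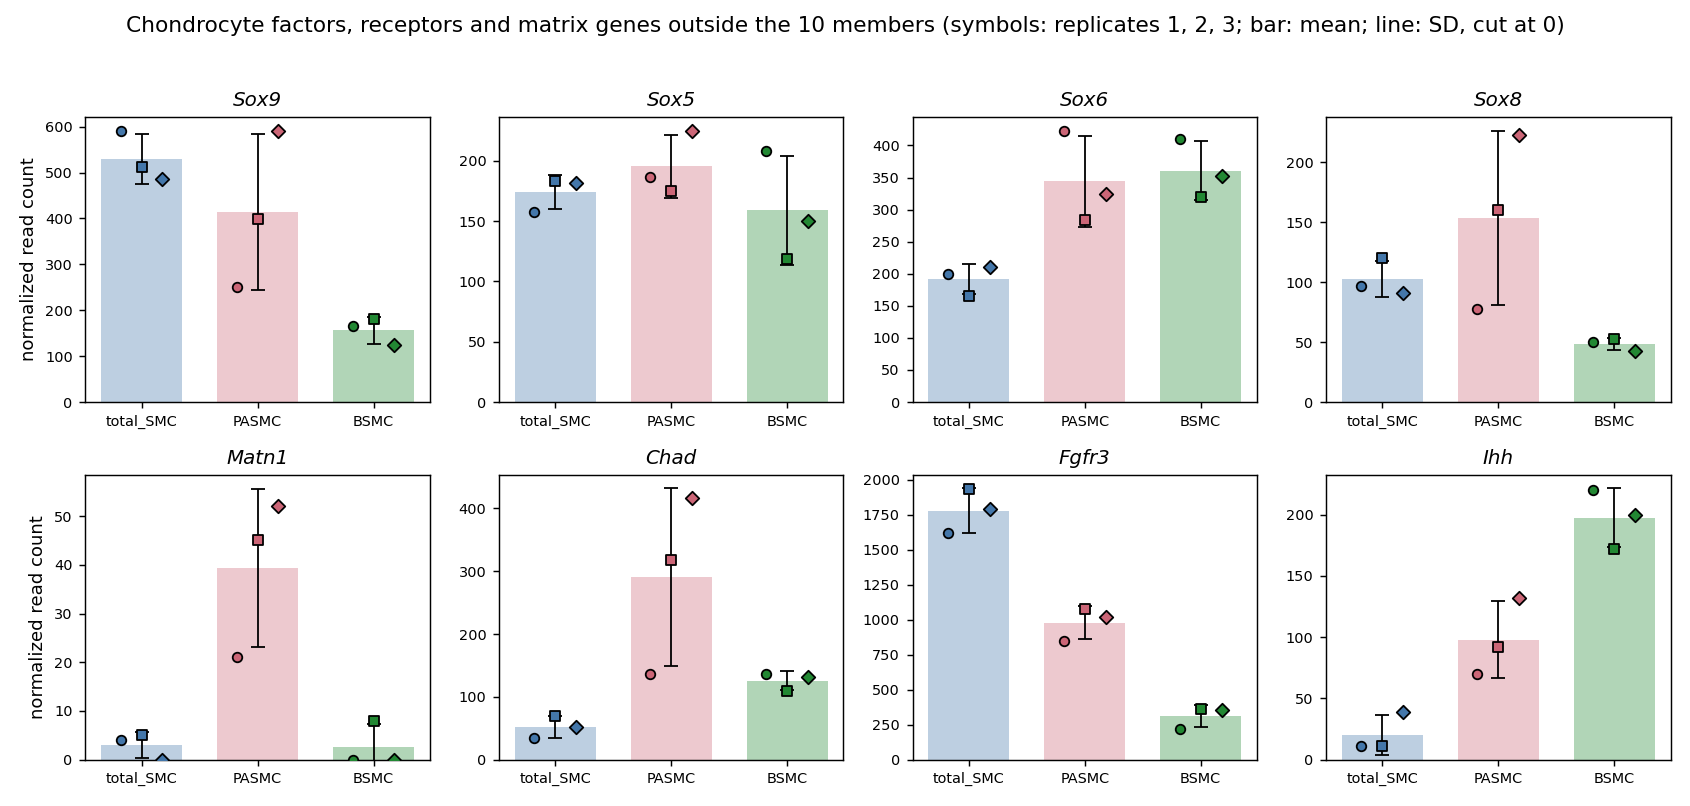
Normalized read count (vertical axis, from 0, a scale for each gene) of chondrocyte factors, receptors and other matrix genes, with symbols for the 3 replicates, a bar for the mean and a line for the SD, cut at 0. Sox9 lies at 124 to 181 counts in BSMC and at 251 or more in every library of the other groups.

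Growth factor signals of chondrocytes were called in both directions where total_SMC was compared. Of 15 tested, 2 were higher and 0 lower in PASMC than in BSMC, where 22.1% of all genes were called. In total_SMC 5 were higher and 5 lower than in PASMC, where 16.2% of all genes were called, and 7 higher and 5 lower than in BSMC, where 41.9% were. The 2 called between PASMC and BSMC became 4 without BSMC replicate 3, and the 10 called between total_SMC and PASMC became 6 without PASMC replicate 2. Fgfr3, the receptor that restrains chondrocyte growth, had 1617, 1933 and 1790 counts in total_SMC, 846, 1075 and 1019 in PASMC, and 219, 359 and 354 in BSMC, with no overlap between groups. It was higher in PASMC than in BSMC by 1.68 (adjusted p = 0.000121) and in total_SMC than in BSMC by 2.55 (adjusted p = 3.27e-06). Ihh, the Hedgehog ligand of prehypertrophic chondrocytes, had 11, 11 and 39 counts in total_SMC, 70, 92 and 132 in PASMC, and 220, 172 and 200 in BSMC. Counts were lower in total_SMC than PASMC by -2.42 (adjusted p = 0.00304) and than in BSMC by -3.46 (adjusted p = 0.000135), and the difference between PASMC and BSMC was not called (-1.04, adjusted p = 0.108). Fgf18, a ligand of FGFR3, had 255, 233 and 194 counts in total_SMC, 556, 674 and 592 in PASMC, and 454, 280 and 510 in BSMC, and was lower in total_SMC than in PASMC by -1.42 (adjusted p = 0.00107).

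Other cartilage matrix genes moved in both directions. Of 17 tested, 4 were higher and 1 lower in PASMC than in BSMC, 5 higher and 5 lower in total_SMC than in PASMC, and 3 higher and 5 lower in total_SMC than in BSMC. In the same order, 22.1%, 16.2% and 41.9% of all genes tested were called in either direction. The 5 called between PASMC and BSMC became 3 without PASMC replicate 3. The 10 called between total_SMC and PASMC became 6 without PASMC replicate 2 or total_SMC replicate 1 and 5 without total_SMC replicate 3, and the 8 called between total_SMC and BSMC became 4 and 5 without total_SMC replicates 1 and 3. Matn1, a second matrilin of cartilage, had 4, 5 and 0 counts in total_SMC, 21, 45 and 52 in PASMC, and 0, 8 and 0 in BSMC. Like that of Matn3, its mean was highest in PASMC. It was not called between total_SMC and BSMC (adjusted p = 0.651). Matn1 passed the limit on low values only through its PASMC libraries. It was higher in PASMC than in BSMC by 4.18 ± 0.98 (adjusted p = 0.0116) and lower in total_SMC than in PASMC by -3.60 (adjusted p = 0.0263). That second call was lost in 5 of 16 alternatives, with an adjusted p of up to 0.113, among them the fits without PASMC replicate 2 or 3 and without total_SMC replicate 1 or 3. Col11a1, the partner chain of Col11a2, had 6, 5 and 4 counts in total_SMC, 3, 27 and 11 in PASMC, and 0, 0 and 0 in BSMC, and was not tested. The gene called in the opposite direction, Cytl1, had 355, 616 and 747 counts in PASMC, against 1319, 905 and 1170 in BSMC. Its log2 difference was -1.03 (adjusted p = 0.012), a call kept in 15 of 17 alternatives. Snorc had 0, 4 and 0 counts in total_SMC, 13, 16 and 14 in PASMC, and 16, 5 and 22 in BSMC. PASMC and BSMC did not differ by a call for Snorc (adjusted p = 0.865). Its calls placed total_SMC under PASMC (adjusted p = 0.0147) and under BSMC (0.0101). Matn1, Col11a1 and Snorc were named after their values were seen.

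The small leucine-rich protein gene Chad, whose product binds collagen II, had 35, 69 and 52 counts in total_SMC, 137, 318 and 416 in PASMC, and 137, 109 and 132 in BSMC. Counts were lower in total_SMC than PASMC by -2.37 (adjusted p = 0.00136). Cilp, a cartilage intermediate layer protein gene, had 2396, 2591 and 2441 counts in total_SMC, 749, 561 and 1160 in PASMC, and 158, 263 and 197 in BSMC. Fmod, which encodes the fibril-binding fibromodulin, had 2054, 1989 and 2533 counts in total_SMC, 695, 558 and 760 in PASMC, and 447, 316 and 477 in BSMC. Both were highest in total_SMC with no overlap between any pair of groups, unlike Col10a1, which was at 3 counts or fewer there. Cilp was higher in total_SMC than in PASMC by 1.65 (adjusted p = 0.000834) and Fmod by 1.71 (adjusted p = 0.000109).

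Genes for the synthesis of chondroitin sulfate, the chains that aggrecan carries, were more often higher than lower in PASMC when set against BSMC. Of 22 tested, 8 were higher and 0 lower in PASMC than in BSMC, where 13.2% of all genes were higher and 8.88% lower, with a median log2 fold change of 0.51 beside 0.047 over all genes. This count was 5 to 15 when single libraries were left out, with 5 without BSMC replicate 1 or any PASMC replicate and 15 without BSMC replicate 2. Chst15, a sulfotransferase gene, had 374, 335 and 371 counts in PASMC, against 181, 165 and 142 in BSMC, and was higher by 1.15 (adjusted p = 0.000771). Between total_SMC and BSMC 10 were higher and 1 lower, and between total_SMC and PASMC 3 were higher and 1 lower, 4 called genes that became 8 without BSMC replicate 2 and 9 without BSMC replicate 3. Among all genes tested, 41.9% were called between total_SMC and BSMC and 16.2% between total_SMC and PASMC. Papss2, which makes the sulfate donor, had 721, 720 and 680 counts in total_SMC, 205, 259 and 212 in PASMC, and 86, 193 and 78 in BSMC, and was higher in total_SMC than in PASMC by 1.65 (adjusted p = 0.00234).

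Of 12 proteases and inhibitors that act on this matrix, 5 were higher and 2 lower in PASMC than in BSMC, 3 higher and 0 lower in total_SMC than in PASMC, and 8 higher and 1 lower in total_SMC than in BSMC. Beside these stood 22.1%, 16.2% and 41.9% of all genes tested, called in either direction. Adamts4, an aggrecanase gene, had 649, 471 and 510 counts in total_SMC, 508, 467 and 474 in PASMC, and 118, 161 and 310 in BSMC. It was higher in PASMC than in BSMC by 1.41 (adjusted p = 0.0055) and in total_SMC than in BSMC by 1.57 (adjusted p = 0.00145). Adamts7, whose product cleaves COMP, was higher in PASMC than in BSMC by 2.12 (adjusted p = 0.0133), a call lost without PASMC replicate 1 (adjusted p = 0.0588). Mmp9, a gelatinase gene also made by leukocytes, had 22, 76 and 32 counts in total_SMC, 18, 10 and 16 in PASMC, and 514, 594 and 425 in BSMC, and was lower in PASMC by -5.06 (adjusted p = 1.36e-05).

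Of 11 genes of tendon and perichondrium, tissues that border cartilage, 2 were higher and 0 lower in PASMC than in BSMC, 2 higher and 4 lower in total_SMC than in PASMC, and 3 higher and 2 lower in total_SMC than in BSMC. The called shares of all genes tested were 22.1%, 16.2% and 41.9% in these comparisons. The 2 genes of this list called between PASMC and BSMC became 1 without BSMC replicate 3 or any PASMC replicate. Scx, the tendon lineage factor, had 216, 142 and 153 counts in total_SMC, 560, 530 and 586 in PASMC, and 643, 485 and 480 in BSMC. Counts were lower in total_SMC than PASMC by -1.73 (adjusted p = 0.000132) and than in BSMC by -1.66 (adjusted p = 6.85e-05).

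Markers of other cell types moved with the groups as well. Leukocyte markers summed to 476 to 607 CPM in total_SMC, 305 to 324 in PASMC and 1286 to 1927 in BSMC, and 11 of 12 were lower in PASMC than in BSMC. The leukocyte gene Ptprc had 0, 4 and 3 counts in total_SMC, 0, 0 and 0 in PASMC, and 760, 569 and 391 in BSMC. Not every leukocyte gene had this pattern. Jchain averaged 1018 counts in total_SMC, 0 in PASMC and 904 in BSMC. Lyz2 averaged 404 counts in total_SMC and 1734 in PASMC. Of the 12 leukocyte markers, 8 were higher and 1 lower in total_SMC than in PASMC, where 9.39% of all genes tested were higher and 6.83% lower. Fibroblast markers summed to 7737 to 8562 CPM in total_SMC, 5890 to 6615 in PASMC and 4982 to 5873 in BSMC, with 8 of 14 higher and 0 lower in PASMC than in BSMC, and 5 called without PASMC replicate 1. Epithelial markers summed to 520 to 691 CPM in total_SMC, 876 to 1006 in PASMC and 699 to 909 in BSMC, with 7 of 15 higher and 2 lower in PASMC than in BSMC. For each of these lists, the share over all genes tested was 13.2% higher and 8.88% lower in PASMC than in BSMC. Mesothelial markers summed to 700 to 857 CPM in total_SMC, 27.0 to 42.4 in PASMC and 76.7 to 180 in BSMC. In sorted bulk samples, fewer cells of a type and less RNA per cell cannot be told apart, and the part of these cell types in the cartilage gene values was not tested.

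The genes most like each tested cartilage gene were ranked by Pearson's r of log2(value + 1) over the 9 libraries, given as a description, since differences between the 3 groups carry much of it. Col2a1 was most like Adgrg1, an adhesion receptor gene, at r = 0.989, followed by Adamts17 at 0.983 and Ssc5d at 0.968. Adgrg1 had 177, 189 and 149 counts in total_SMC, 239, 237 and 229 in PASMC, and 92, 100 and 123 in BSMC. Col10a1 was most like Hr at 0.968, then Pdzrn3 and Gper1, both at 0.954, and Hr had 673, 562 and 546 counts in total_SMC, 744, 1017 and 882 in PASMC, and 472, 620 and 536 in BSMC. Comp was most like Slc35e2 at 0.923, Cnmd most like Hmcn1 at 0.923, Col9a3 most like Srgap3 at 0.931 and Col11a2 most like Mbtps2 at 0.937. Among the tested cartilage genes themselves, Col2a1 and Col10a1 were most alike at r = 0.81, followed by Col2a1 and Comp at 0.66, and all other pairs were at 0.48 or below.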

How the data were processed

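RNA sequencing libraries were made with SMART-Seq v4 from at most 10 ng of RNA, per the labels' protocols. The submitters' processing notes name the build mm39 and, with no role or order, DESeq2 1.36.0, featureCounts 2.0.4, Picard 3.1.1, STAR 2.7.11a and Trimmomatic 0.39. The deposited values carry the unit score here. As read from their spacing, they are normalized read counts per gene that the authors rounded to whole numbers. They are not raw counts, so a test on log values was used in place of a count test. A factor per library was recovered from the spacing, within 0.002% on simulated data, and values divided by it are the recovered reads.

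Genes were kept where 3 or more libraries reached a value of 10, log2(value + 1) was taken, and the 9 libraries were fitted with 3 group means in limma 3.58.1 (R 4.3.3, eBayes with trend and robust options). Pairs of groups were compared and p-values adjusted by Benjamini-Hochberg over 15647 genes. Plots were drawn with matplotlib 3.10.9, and tables with pandas 2.3.3, scipy 1.17.1 and numpy 2.4.6 in Python 3.11.15. Depth was 6.39 to 10.02 M recovered reads per library, and intervals on reads cover counting error only.

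The cartilage genes and the gene lists were chosen with earlier results of these data known. Named from each other list were up to 3 called genes per direction and comparison, those with the largest fold changes. The higher group had to average 50 or more, with no overlap between libraries, and the text gives a part of these genes. Sox9, Acta2, Myh11, Chrm2 and Cspg4 were always named. Genes named outside that rule, such as Sox5, were chosen after their values were seen. The alternatives were another pseudocount (5), another filter, other scalings, other fits, and leaving out each library. Libraries of 1 group differed beyond sampling noise (chi-square per gene 6.1 to 31.2). Same-numbered libraries deviated little together from their group means (r from -0.124 to 0.136), and the main fit did not pair them. With 3 libraries per group this cannot exclude a shared animal or day, and the labels do not say what the numbers mark.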

Additional observations from a re-analysis of the deposited data

How the results depend on the processing

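Depth limits most of these genes, whose counts lie near 0 in at least 1 group. The counts of cartilage genes called were 2 between PASMC and BSMC, 1 between total_SMC and PASMC and 1 between total_SMC and BSMC. They became 4, 2 and 1 with no filter on low values, and 0 in each comparison with a filter of 50, which keeps none but Comp in the test. Between total_SMC and PASMC the count was 2 with only the 2 groups in the fit, without the trend and robust options, with a pseudocount of 5 and after quantile scaling. Between total_SMC and BSMC it was 0 with only the 2 groups in the fit and after quantile scaling. When single libraries were left out it was 2 to 3 between PASMC and BSMC, 1 to 2 between total_SMC and PASMC, and 0 (without total_SMC replicate 2) to 2 (without BSMC replicate 1) between total_SMC and BSMC. The counts over all genes were 3451 between PASMC and BSMC and 2539 between total_SMC and PASMC, and with only the 2 groups in the fit they were 1926 and 4345. With single libraries left out they ran from 1724 (without PASMC replicate 1) to 6698 (without BSMC replicate 2) between PASMC and BSMC and from 1679 (without total_SMC replicate 2) to 3219 between total_SMC and PASMC. Between PASMC and BSMC 2062 genes were higher and 1389 lower, and 2017 and 2072 after quantile scaling, 1891 and 690 on recovered reads without scaling. Between total_SMC and BSMC 3706 were higher and 2847 lower, and 3217 and 4049 after quantile scaling, 3392 and 1554 on recovered reads without scaling. Without scaling the median log2 fold change of all genes was 0.273 between PASMC and BSMC and 0.224 between total_SMC and BSMC. The sign of these uncalled log2 differences turned: between total_SMC and BSMC, Col10a1 was -0.54 after quantile scaling and -0.17 to 0.83 with single libraries left out, and Col9a3 was 0.13 without scaling and -1.0 to 0.93 with single libraries left out. With single libraries left out, Col9a3 was -0.30 to 1.63 and Col11a2 -2.07 to 0.34 between PASMC and BSMC, and Col11a2 was -1.84 to 0.57 and Comp -0.42 to 0.14 between total_SMC and PASMC. With a replicate block the cartilage counts stayed at 2, 1 and 1, and the counts over all genes were 3287, 2286 and 6350. The cause of these moves was not tested.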
